A study of Rattus norvegicus with 16 samples.

Results

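The genes described here encode the subunits of respiratory complex I, the NADH dehydrogenase of the inner mitochondrial membrane, in the brains of rats that lack PINK1, a mitochondrial kinase, and of wild-type (WT) rats. Nuclear subunit genes were taken by symbol from a list of 34 names, and the mitochondrially encoded ones by symbols that begin with Mt-nd. The search returned 42 of the 32754 identifiers in the deposited count tables, 35 of them nuclear and 7 mitochondrial. Ndufa1 has 2 identifiers, which makes 35 nuclear rows from 34 symbols. Total RNA from dissected frozen brain was sequenced in 16 libraries, 4 each from male Pink1-/-, male WT, female Pink1-/- and female WT rats, all 8 months old. Brain is the tissue on the labels, while the title of the study places the samples in the nucleus ambiguus, a motor cell group of the medulla. The Pink1-/- rats carry a disrupted Pink1 gene in the whole animal, and the labels name no further allele or treatment in either genotype. The animal number differs between all 16 libraries, so each library is taken as a separate rat and is named here by that number.

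Complex I takes electrons from NADH, passes them through a flavin and a chain of iron-sulfur clusters to ubiquinone, and uses the energy to pump protons out of the matrix. It is L-shaped, with a matrix arm that carries the redox groups and a membrane arm that carries the proton channels. The core of the membrane arm is made inside mitochondria from the Mt-nd genes, and every other subunit is encoded in the nucleus and imported, so assembly draws on both genomes. In fly and mouse, loss of PINK1 has been linked to lower complex I activity, and in mouse the phosphorylation of the accessory subunit NDUFA10 was found to depend on PINK1. Midbrain dopamine neurons are sensitive to inhibitors of the complex such as rotenone.

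Pink1 itself stood at 1.51 to 2.32 CPM (counts scaled to library size) in male Pink1-/- libraries, against 64.7 to 78.3 CPM in male WT, and at 4.68 to 11.6 CPM in female Pink1-/- libraries, against 115 to 137 CPM in female WT. All 16 libraries therefore carried the Pink1 level their genotype label calls for. Library totals ran from 10959412 to 26570195 counts. Annotated loci that bear the name of a mitochondrial clone held between 36.5% and 44.0% of male counts but only between 1.77% and 11.9% of female counts. How the libraries were made and the sex of the rats cannot be told apart, and levels are set side by side only within a sex. Male Pink1-/- 17 and male WT 23 stood at the ends of the range of the 7SL RNA gene Rn7sl1, with 2.10% and 0.141% of counts. Female Pink1-/- 548 had the lowest share of the mitochondrial clone loci, 1.77%, against 8.08% to 11.9% in the other 7 female libraries. The summed levels of 9 lists of cell type markers overlapped between Pink1-/- and WT libraries in both sexes. Of single markers, 1 was called: the microglial receptor gene P2ry12 rose in male Pink1-/- (log2 fold change 0.59, SE 0.14, adjusted p = 0.0465), while the sum of the 4 microglia markers was 74.5 to 87.1 CPM in male Pink1-/- and 59.4 to 88.3 CPM in male WT. Its part in the male results was not tested. The motor neuron marker Chat, which makes acetylcholine, ran from 6.24 CPM in female WT 111 to 76.9 CPM in female WT 504, both of the same group. Folr1, a marker of choroid plexus, was at 0 in all 16 libraries. In bulk tissue, fewer cells of a type and less RNA per cell cannot be told apart.

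Few complex I genes passed the test between genotypes. In males, 1 nuclear member rose and 1 fell at a Benjamini-Hochberg adjusted p under 0.05 (edgeR quasi-likelihood test). Of the 13770 male genes tested, 2.3% were called, 1.08% higher and 1.22% lower in Pink1-/-. They were Ndufb7, an accessory subunit of the membrane arm, and Ndufa6, an accessory subunit of the matrix arm. In females no member passed (0 of 33 nuclear and 0 of 7 Mt-nd rows, beside 0.059% of 15265 genes, 0.0262% higher and 0.0328% lower), and all 7 Mt-nd genes had an unadjusted p under 0.05 with lower levels in Pink1-/-, where 4.64% of all genes had such a p. Among the 34 nuclear rows tested in males, 15 had a log2 fold change above 0 and 19 below 0, with a median of -0.03. Among the 33 tested in females, 3 were above 0 and 30 below, with a median of -0.10. The median over all genes was 0.0057 in males and 0.0011 in females, and 49.2% and 49.7% of all genes were below 0.

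**Figure D1:**
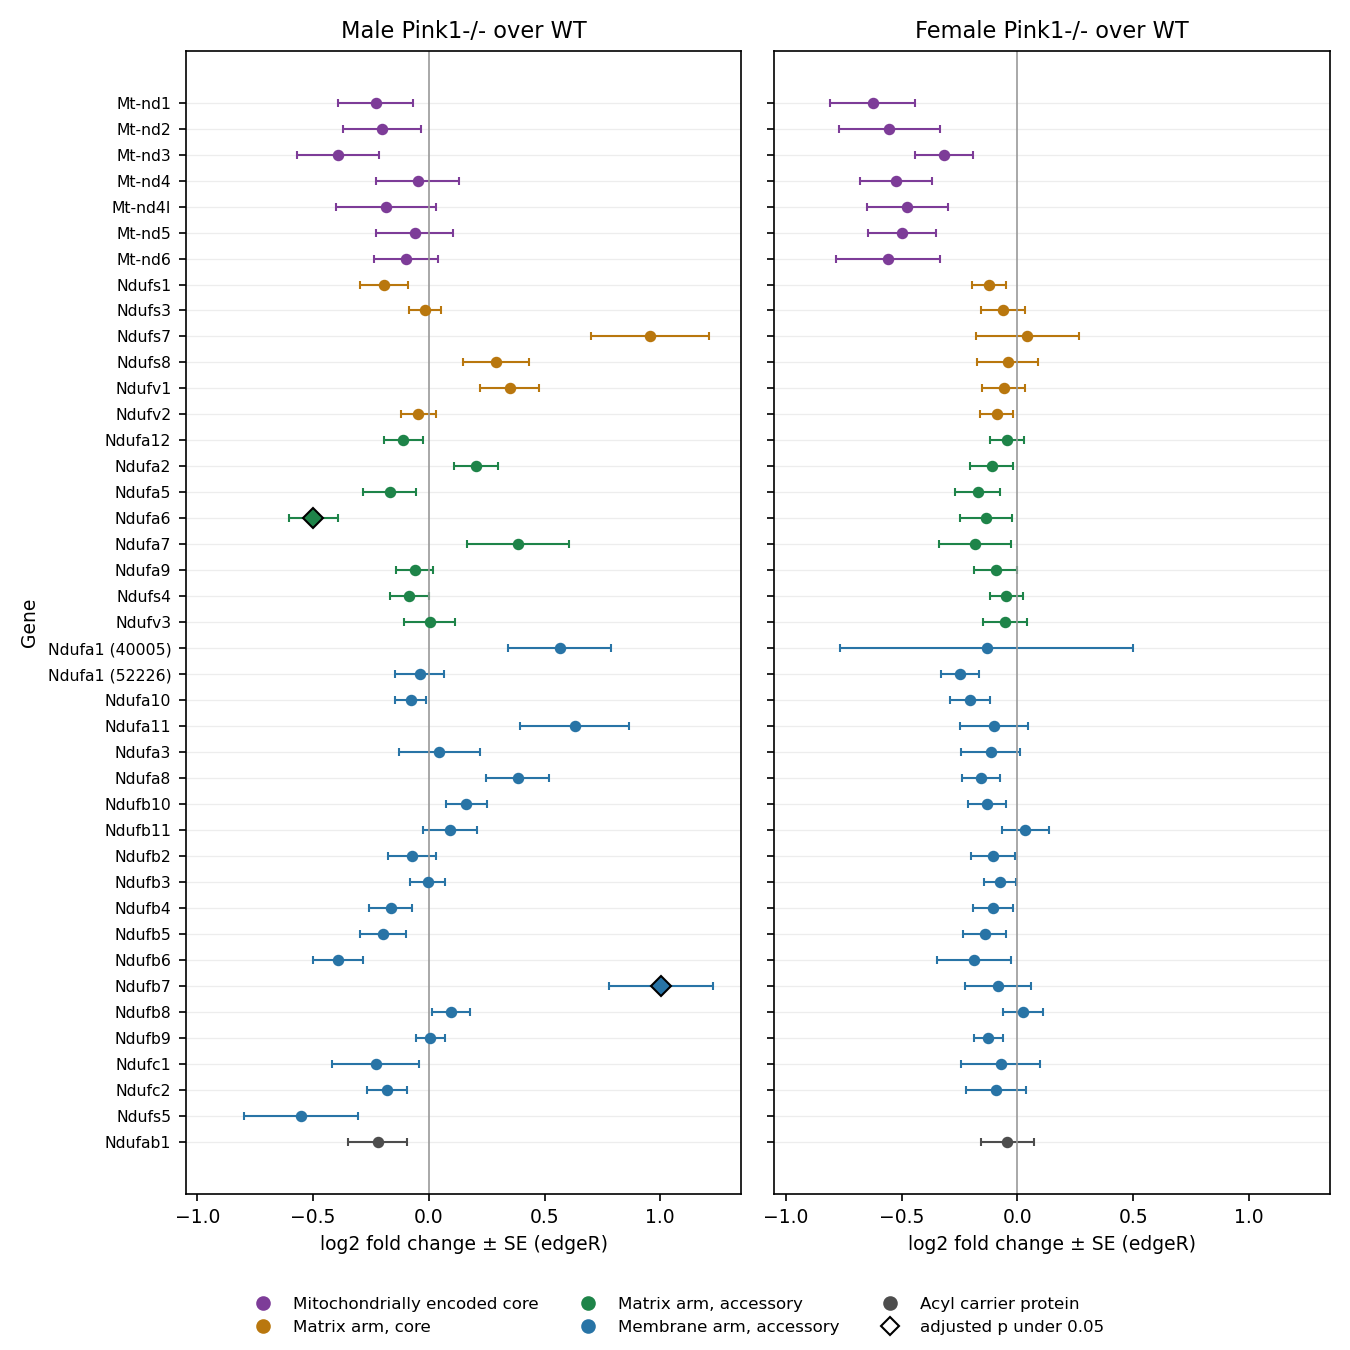
Log2 fold change of Pink1-/- over WT for every tested complex I gene, in males on the left and females on the right, with bars of 1 standard error (SE) from the edgeR fit. Colours mark the role, larger diamonds mark an adjusted p under 0.05 (Ndufa6 and Ndufb7 in males), and the number after Ndufa1 is the end of its identifier. The male nuclear genes spread to both sides of 0, from -0.55 to 1.003, and the 7 female Mt-nd genes lie between -0.63 and -0.32.

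The promoters of the called members are shown because their levels differed in opposite directions in the same male libraries. Each run is the 250 bases before the start of the gene on its minus strand, from RefSeq on the rat build GRCr8, at chr19:41477292-41477541 for Ndufb7 and chr7:115750318-115750567 for Ndufa6. Capitals mark CCGGAAG, a core sequence bound by factors of the ETS family, and GCGCANGCG, the core of the site of nuclear respiratory factor NRF1, on either strand.
Ndufb7: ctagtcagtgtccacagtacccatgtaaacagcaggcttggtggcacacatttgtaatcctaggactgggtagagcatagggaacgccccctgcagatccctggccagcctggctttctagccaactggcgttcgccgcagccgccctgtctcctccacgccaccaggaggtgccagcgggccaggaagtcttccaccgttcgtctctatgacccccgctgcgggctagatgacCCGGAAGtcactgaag
Ndufa6: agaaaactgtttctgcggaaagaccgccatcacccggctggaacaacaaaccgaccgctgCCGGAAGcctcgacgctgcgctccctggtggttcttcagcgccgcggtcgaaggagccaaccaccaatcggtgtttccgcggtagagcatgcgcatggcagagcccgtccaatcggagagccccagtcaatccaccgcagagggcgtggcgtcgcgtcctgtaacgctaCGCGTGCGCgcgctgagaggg
Counted from the start of the gene, CCGGAAG begins at -16 in Ndufb7 and at -190 in Ndufa6, on the strand of the gene in both. GCGCANGCG lies on the opposite strand of Ndufa6, from -21, and is not in the window of Ndufb7. Promoters were found for 32 of the 34 nuclear symbols (not for Ndufa8 and Ndufb9). CCGGAAG was present on either strand in 7 of these 32 (21.9%), and in 7.27% of all 33469 promoters or 9.01% of the 21851 of protein-coding genes. GCGCANGCG was present in 7 of 32 (21.9%), and in 5.09% of all promoters or 6.81% of those of protein-coding genes. AAGATGGCG, the core of the YY1 motif, and TCAAGGTCA, the motif of the oestrogen-related receptors, were present in 0 of 32, and in 0.693% and 0.388% of all promoters. Both strands were searched for all 4 motifs, and none of them contains another.

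The core subunits of the matrix arm form the electron path. Ndufs7, which carries the last iron-sulfur cluster before ubiquinone, had 15.2, 8.33, 6.24 and 7.57 CPM in male Pink1-/- libraries 17, 18, 19 and 25, against 4.82, 4.73, 3.82 and 6.005 CPM in male WT libraries 20, 22, 23 and 24. Every Pink1-/- library was above every WT library, and library 17 was far above the rest. Its log2 fold change was 0.96 (SE 0.26, adjusted p = 0.0689), which did not pass. Without library 17 the value was 0.61, and its adjusted p was at most 0.181 when any single library was left out. Ndufs8, another iron-sulfur subunit beside it, stood at 9.48 ± 1.91 CPM in Pink1-/- and 7.78 ± 0.427 CPM in WT males (SD, n = 4 each), again with no overlap (0.29, adjusted p = 0.219). Ndufv1, which binds NADH and the flavin, stood at 38.0 ± 7.06 and 29.9 ± 3.79 CPM (0.35, adjusted p = 0.127), and these groups overlapped. The other 3 core subunits had log2 fold changes from -0.19 (Ndufs1, the largest subunit) to -0.02 (Ndufs3). In females all 6 lay between -0.12 and 0.04.

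Among the 8 accessory subunits of the matrix arm, 1 fell in males. Ndufa6, a protein of the LYR family that holds an acyl carrier protein on the complex, had 24.9, 29.2, 30.8 and 35.9 CPM in male Pink1-/- libraries 17, 18, 19 and 25, against 45.8, 38.9, 41.8 and 44.4 CPM in male WT libraries 20, 22, 23 and 24. The groups did not overlap, as for 15.2% of all male genes (8.04% with Pink1-/- lower). Ndufa6 averaged 30.2 ± 4.57 CPM in Pink1-/- and 42.7 ± 3.05 CPM in WT (SD, n = 4 each), a log2 fold change of -0.50 (SE 0.11, adjusted p = 0.0352). It stayed between -0.60 and -0.42 when each library was left out in turn, and passed in 2 of these 8 fits, those without Pink1-/- 17 and without Pink1-/- 25. The adjusted p was 0.0826 without Pink1-/- 18, 0.0596 without Pink1-/- 19, and 0.0713, 0.0644, 0.0721 and 0.0651 without WT 20, 22, 23 and 24. It was 0.0585 with library totals as the only scaling and 0.244 with 1 surrogate variable in the fit (-0.42). In females Ndufa6 had 47.2, 41.7, 51.1 and 46.1 CPM in Pink1-/- libraries 548, 602, 736 and 983, against 60.7, 54.8, 43.2 and 46.0 CPM in WT libraries 64, 111, 504 and 980. These groups overlapped (-0.13, SE 0.11, adjusted p = 0.993). The acyl carrier protein gene Ndufab1 itself stood at -0.22 in males and -0.04 in females, with adjusted p of 0.275 and 0.995. The other 7 accessory subunits of the matrix arm lay between -0.17 (Ndufa5) and 0.38 (Ndufa7) in males. All 8 were below 0 in females, from -0.18 to -0.04.

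Among the accessory subunits of the membrane arm, 1 rose in males. Ndufb7, which faces the intermembrane space and carries paired cysteines, had 11.8, 8.80, 5.67 and 7.64 CPM in male Pink1-/- libraries 17, 18, 19 and 25, against 4.40, 4.28, 2.99 and 5.32 CPM in male WT libraries 20, 22, 23 and 24. In counts it had 60 to 173 in Pink1-/- and 36 to 70 in WT. The groups did not overlap, as for 7.15% of all male genes with Pink1-/- higher. Ndufb7 averaged 8.47 ± 2.55 CPM in Pink1-/- and 4.25 ± 0.959 CPM in WT males (SD, n = 4 each), a log2 fold change of 1.003 (SE 0.22, adjusted p = 0.0432). It stayed between 0.80 and 1.14 when each library was left out, and passed in 1 of these 8 fits, that without Pink1-/- 19. The adjusted p was 0.0783, 0.0830 and 0.0661 without Pink1-/- 17, 18 and 25, and 0.0718, 0.115, 0.118 and 0.0505 without WT 20, 22, 23 and 24. It was 0.0782 with library totals as the only scaling and 0.323 with 1 surrogate variable (0.54). In females Ndufb7 had 52.1, 38.6, 60.4 and 48.7 CPM in Pink1-/- libraries 548, 602, 736 and 983, against 56.8, 42.2, 51.6 and 61.1 CPM in WT libraries 64, 111, 504 and 980. The female groups overlapped (-0.08, SE 0.14, adjusted p = 0.995).

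Ndufb6, a small accessory subunit of the distal membrane arm, had 15.5, 17.2, 18.3 and 22.1 CPM in male Pink1-/- libraries 17, 18, 19 and 25, against 23.5, 24.2, 23.3 and 24.9 CPM in male WT libraries 20, 22, 23 and 24. The Pink1-/- libraries were all lower, and the log2 fold change was -0.39 (SE 0.11, adjusted p = 0.0724). Ndufb6 passed in 1 of the 8 fits that left a library out, that without Pink1-/- 25 (-0.50, adjusted p = 0.0390). It stood at -0.32 without Pink1-/- 17, and the highest adjusted p among these fits was 0.161. In females Ndufb6 had 14.5, 10.7, 15.4 and 16.4 CPM in Pink1-/- libraries 548, 602, 736 and 983, against 16.5, 12.05, 18.8 and 17.6 CPM in WT libraries 64, 111, 504 and 980, and the groups overlapped (-0.19, SE 0.16, adjusted p = 0.993).

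Ndufa11, a membrane subunit at contacts between complexes I and III, had 25.7, 15.1, 13.0 and 14.5 CPM in male Pink1-/- libraries 17, 18, 19 and 25, against 13.1, 11.1, 6.72 and 13.4 CPM in male WT libraries 20, 22, 23 and 24. The high value of 17 and the low value of WT 23 set the ends, and the other 6 libraries overlapped. The log2 fold change was 0.63 (SE 0.24, adjusted p = 0.131), and it was 0.36 without Pink1-/- 17. Ndufs5, an intermembrane space subunit with cysteine pairs like those of Ndufb7, had 2.32, 3.58, 1.89 and 3.97 CPM in male Pink1-/- libraries and 5.33, 4.35, 4.73 and 3.04 CPM in male WT libraries, in the same orders. This row held only 20 to 63 counts per male library and its groups overlapped (-0.55, SE 0.25, adjusted p = 0.179). The authors' comparison table for males names this row LOC100363268 and gives the symbol Ndufs5 to another identifier, described below. The remaining 15 tested rows of this class lay between -0.23 (Ndufc1) and 0.57 (the sparser identifier of Ndufa1, ENSRNOG00000040005, with 20 to 56 counts per male library and no overlap, adjusted p = 0.143). Over all 34 nuclear rows tested in males, 6 separated the genotypes without overlap, 4 of them higher (Ndufb7, Ndufs7, Ndufs8 and the sparser Ndufa1) and 2 lower (Ndufa6 and Ndufb6) in Pink1-/-. As a share of the members this is near the 15.2% of all male genes that did so.

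The libraries at the ends of the Rn7sl1 range were also at the ends for many nuclear members. Male Pink1-/- 17 was the highest of the 8 male libraries for 8 of 34 nuclear rows and the lowest for 10. Male WT 23 was the highest for 8 and the lowest for 7. Here and below, such ranks were counted for complex I rows only. Without the share over all genes they do not show whether this is particular to complex I. The 8 rows highest in 17 were Ndufb7, Ndufs7, Ndufa11, Ndufa7, Ndufa8, Ndufs8, Ndufv1 and the sparser Ndufa1, and the first 5 of these were lowest in WT 23. The 10 rows lowest in 17 included Ndufa6 and Ndufb6, and for 4 of them (Ndufa9, Ndufb5, Ndufs1 and Ndufs4) WT 23 was highest. Without both libraries, an alternative chosen after the data were seen, 0 members passed, Ndufb7 stood at 0.67 (adjusted p = 0.143) and Ndufa6 at -0.42 (adjusted p = 0.0689). The summed level of 4 neuron markers was lowest in 17 (1447 CPM) and highest in WT 23 (1965 CPM), and the 2 groups overlapped. Most of that sum was Snap25, with 1048 CPM in 17 and 1655 CPM in WT 23, and Syt1 had 126 CPM in 17 and 135 CPM in WT 23. The other neuron markers were higher in 17, with 251 CPM of Tubb3 against 157 CPM in WT 23, and 21.9 CPM of Rbfox3 against 18.1 CPM. With the mitochondrial clone loci and Rn7sl1 taken out before the fit, the male nuclear median was -0.03, as in the main fit. With 1 surrogate variable in the fit, 0 members passed and Ndufb7 stood at 0.54. The part that library composition had in these values was not tested beyond these fits and leaving the libraries out.

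**Figure D2:**
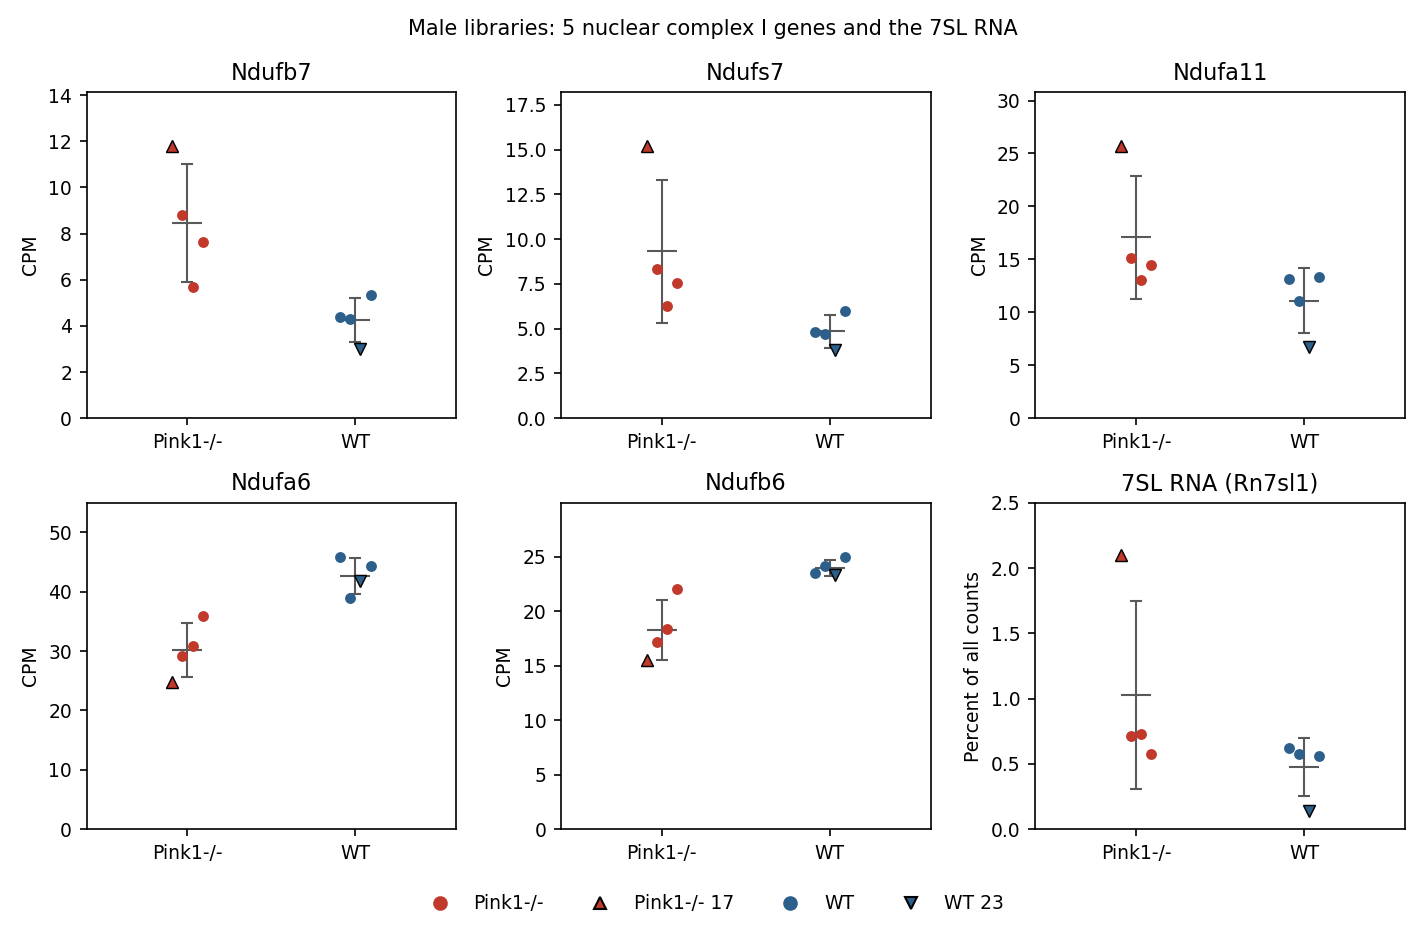
CPM of 5 nuclear complex I genes and percent of counts of the 7SL RNA in the 4 male Pink1-/- and 4 male WT libraries, with the mean and 1 SD. Triangles mark Pink1-/- 17 and WT 23, which lie at opposite ends for Rn7sl1 (2.10% and 0.141%) and for Ndufb7, Ndufs7 and Ndufa11. For Ndufa6 and Ndufb6, 17 is the lowest of the 8 libraries and WT 23 lies among or at the lower end of the WT ones. Of the 5 complex I genes, only Ndufa11 has groups that overlap.

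The Mt-nd genes encode the membrane core, in which Mt-nd2, Mt-nd4 and Mt-nd5 form pumps related to antiporters and Mt-nd1 lines the ubiquinone site. In males all 7 had log2 fold changes below 0, with a median of -0.19, and 0 were called (1 had an unadjusted p under 0.05, where 26.2% of all genes did). Mt-nd3, whose loop lies at the junction of the arms, was the farthest from 0. It had 714, 1218, 1297 and 1534 CPM in male Pink1-/- libraries 17, 18, 19 and 25, against 1717, 1482, 1637 and 1413 CPM in male WT libraries 20, 22, 23 and 24, and the groups overlapped (-0.39, SE 0.18, adjusted p = 0.187). Mt-nd1 had 3166, 5903, 5812 and 5238 CPM in these Pink1-/- libraries and 5540, 5886, 6340 and 5808 CPM in the WT ones (-0.23, SE 0.16, adjusted p = 0.376). In both genes library 17 was far below the rest. For Mt-nd3, Pink1-/- 18 and 19 were also below every WT library and 25 lay among them, and for Mt-nd1, 18 and 19 lay among the WT libraries and 25 just below them.

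Male values of Mt-nd2 were 2265, 4241, 4082 and 3658 CPM in Pink1-/- and 4770, 3996, 4005 and 3627 CPM in WT, in the same library orders (-0.20). Those of Mt-nd4 were 2255, 3685, 4329 and 2948 CPM in Pink1-/- and 4219, 3425, 3262 and 2762 CPM in WT (-0.05). For Mt-nd5 they were 1769, 2916, 3249 and 2242 CPM in Pink1-/- and 3083, 2755, 2574 and 2203 CPM in WT (-0.06). All 3 pump genes overlapped between genotypes, and Pink1-/- 19 was the highest of all 8 libraries for Mt-nd4 and Mt-nd5. Mt-nd4l, a small subunit beside them, had 224, 346, 394 and 371 CPM in Pink1-/- and 584, 326, 318 and 292 CPM in WT males (-0.19), where WT 20 stood apart from the other 7. Mt-nd6, the only protein gene on the light strand of the mitochondrial genome, had 342, 546, 549 and 423 CPM in Pink1-/- and 461, 561, 515 and 453 CPM in WT males (-0.10). The labels do not say whether the libraries kept strand, so reads of Mt-nd6 cannot be told from transcripts of the opposite strand at the same place.

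Library 17 was the lowest of the 8 male libraries for all 7 Mt-nd genes, at 45.7% to 68.7% of the WT mean. Without it Mt-nd4, Mt-nd5 and Mt-nd6 stood at 0.10, 0.08 and 0.02, and without WT 20 Mt-nd4, Mt-nd5 and Mt-nd4l stood at 0.07, 0.02 and 0.10. The sign in males therefore rested on single libraries for 4 of the 7 genes. Without library 17 the others ranged from -0.21 (Mt-nd3) upwards, and none passed.

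In females the Mt-nd genes had a median log2 fold change of -0.53, from -0.63 (Mt-nd1) to -0.32 (Mt-nd3), and none passed over all genes (smallest adjusted p = 0.682). Mt-nd1 had 1075, 1668, 2186 and 2086 CPM in female Pink1-/- libraries 548, 602, 736 and 983, against 2515, 2810, 2821 and 2683 CPM in female WT libraries 64, 111, 504 and 980. Every Pink1-/- library was below every WT library (-0.63, SE 0.18, unadjusted p = 0.0058, adjusted p = 0.682). Mt-nd4 had 1476, 1890, 2632 and 2424 CPM in these Pink1-/- libraries and 2837, 3056, 3163 and 3069 CPM in the WT ones (-0.53, SE 0.16, adjusted p = 0.70). Mt-nd5 had 1317, 1860, 2315 and 2130 CPM in Pink1-/- and 2587, 2656, 2833 and 2682 CPM in WT (-0.50, SE 0.15, adjusted p = 0.70). These groups did not overlap either, and libraries 548 and 602 were the low ones in each.

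Female values of Mt-nd3 were 370, 500, 572 and 556 CPM in Pink1-/- and 600, 574, 680 and 633 CPM in WT (-0.32), in the same library orders. For Mt-nd6 they were 79.98, 138, 208 and 179 CPM in Pink1-/- and 213, 217, 245 and 218 CPM in WT (-0.56). Both genes separated the genotypes narrowly, with the highest Pink1-/- library, 736, just under the lowest WT one. The pump gene Mt-nd2 had 732, 1150, 1817 and 1507 CPM in Pink1-/- and 1714, 1922, 2031 and 1971 CPM in WT females (-0.55). Mt-nd4l had 104, 129, 211 and 164 CPM in Pink1-/- and 210, 196, 225 and 214 CPM in WT females (-0.48). For Mt-nd2 and Mt-nd4l library 736 lay among the WT libraries. In all, 5 of the 7 genes were lower in Pink1-/- with no overlap, as were 1.76% of all female genes (1.62% were higher and 3.38% apart either way).

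Female Pink1-/- 548 was the lowest and WT 504 the highest of the 8 female libraries for all 7 Mt-nd genes. Library 548 stood at 35.8% (Mt-nd6) to 59.6% (Mt-nd3) of the WT mean, 602 at 60.2% to 80.4%, 983 at 77.1% to 89.5% and 736 at 80.8% to 99.97%. All of these values were below the WT mean. Without library 548 the log2 fold changes ran from -0.45 (Mt-nd1) to -0.19 (Mt-nd3), all 7 still below 0. The 7 genes are read from the same genome in the same libraries and are not 7 independent results. Library 548 was also the one with the lowest share of the mitochondrial clone loci, 1.77%. With these loci and Rn7sl1 taken out before the fit, the female Mt-nd median was -0.526, as in the main fit, with all 7 below 0. Of the counts that remained, Mt-nd genes made up 0.610% to 1.14% in female Pink1-/- and 1.23% to 1.37% in female WT. The part of library 548 in the Mt-nd values was not tested beyond these values and leaving it out.

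**Figure D3:**
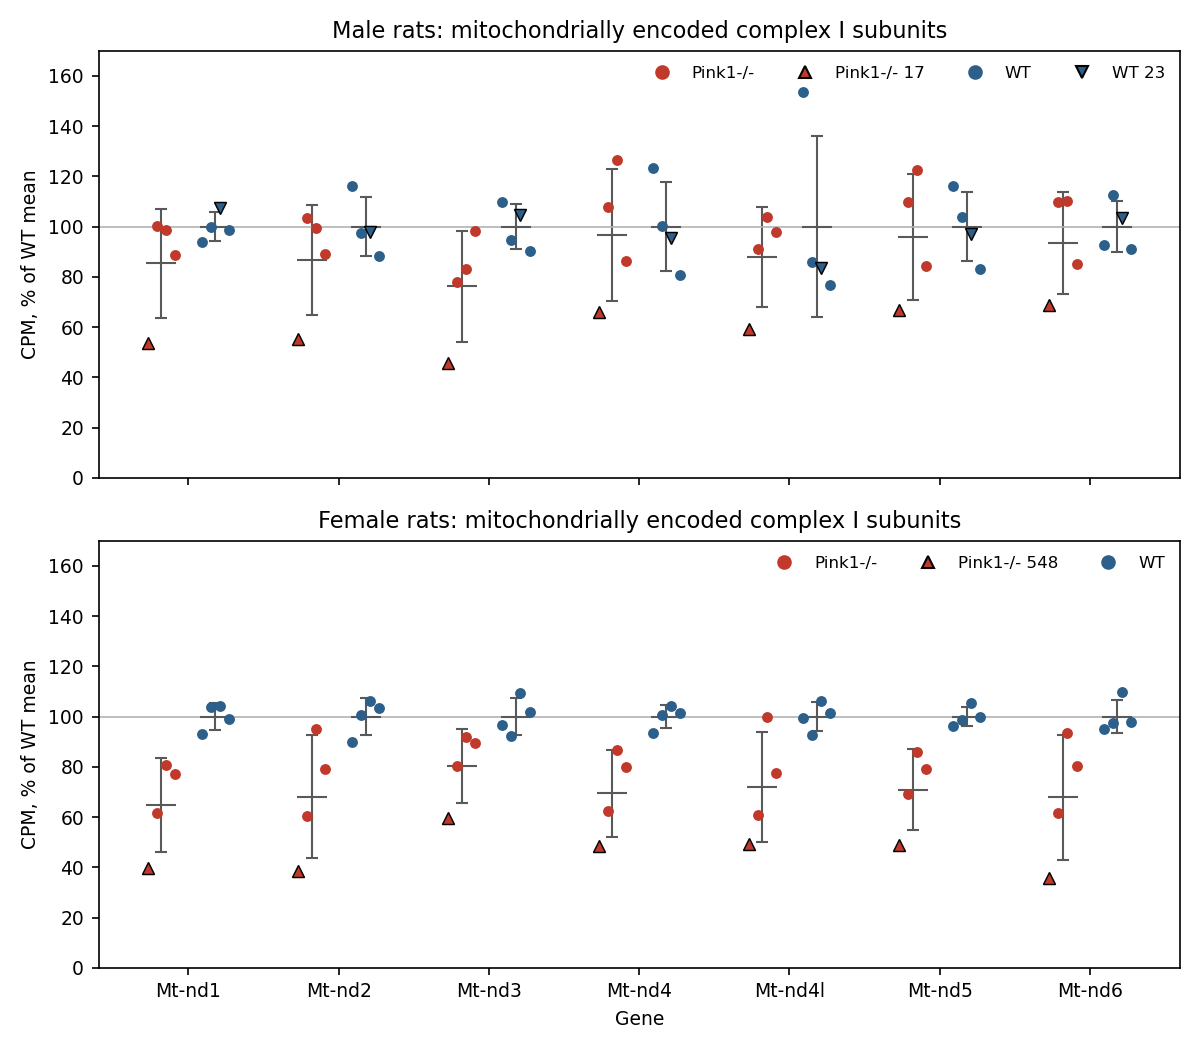
CPM of each Mt-nd gene as percent of the WT mean of the same sex, in male (top) and female (bottom) Pink1-/- and WT libraries, with the mean and 1 SD over 4 libraries. Male Pink1-/- 17 lies at 45.7% to 68.7%, lowest of the 8 male libraries for every gene, and the male groups overlap for all 7 genes, whereas in females the Pink1-/- libraries lie at or below the WT mean for every gene, with 548 lowest.

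The nuclear members were close to WT in females. The lowest was the well-covered identifier that the count tables name Ndufa1 (ENSRNOG00000052226), after an X-linked subunit of the membrane arm. The authors' comparison tables name this identifier LOC108348144 and give the symbol Ndufa1 only to the sparser one. The well-covered row had 45.2, 37.9, 38.6 and 37.2 CPM in female Pink1-/- libraries 548, 602, 736 and 983, against 49.1, 46.5, 47.9 and 45.2 CPM in female WT libraries 64, 111, 504 and 980. The groups did not overlap but nearly touched (-0.25, SE 0.08, unadjusted p = 0.0119, adjusted p = 0.877), and in males the same row stood at -0.04. Ndufa10, the accessory subunit linked to PINK1 in mouse, had 100.4, 93.6, 101 and 95.8 CPM in female Pink1-/- and 118, 113, 124 and 95.4 CPM in female WT libraries, in the same orders. WT 980 lay among the Pink1-/- libraries (-0.20, SE 0.08, unadjusted p = 0.0343, adjusted p = 0.993). In males Ndufa10 had 85.2, 87.4, 81.1 and 92.8 CPM in Pink1-/- libraries 17, 18, 19 and 25, against 91.0, 88.9, 96.6 and 89.6 CPM in WT libraries 20, 22, 23 and 24, and these groups overlapped as well (-0.08, SE 0.07, adjusted p = 0.463). The authors' comparison tables give this identifier the symbol Ndufa10l1.

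At the upper end in females, Ndufs7 had 29.4, 16.8, 33.0 and 26.1 CPM in Pink1-/- libraries 548, 602, 736 and 983, against 28.3, 17.4, 23.0 and 33.7 CPM in WT libraries 64, 111, 504 and 980 (0.04, SE 0.22). Ndufb11, another X-linked subunit, had 26.9, 28.6, 35.7 and 32.7 CPM in Pink1-/- and 31.7, 27.8, 31.1 and 30.5 CPM in WT females (0.03, SE 0.10). Ndufb8, whose protein is often blotted as a sign of assembled complex I, had 84.8, 80.5, 80.8 and 95.5 CPM in Pink1-/- and 76.0, 82.6, 94.9 and 82.1 CPM in WT females (0.03, SE 0.09). All 3 overlapped, each had an adjusted p of 0.995, and each turned below 0 when a single library was left out. Of the 33 nuclear rows tested in females, WT 504 was the highest library for 20 and Pink1-/- 602 the lowest for 12. These ranks too were counted without the share over all genes. With library totals as the only scaling, 26 of 33 were below 0, the median over members was -0.05 and that over all genes 0.05. Across the sexes, 18 of the 33 nuclear rows tested in both were below 0 in both, 3 were above 0 in both, and 12 were above 0 in males and below 0 in females. Such sign patterns were not counted over all genes, and 30 of the 33 rows were below 0 in females.

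Summed over each genome, the Mt-nd genes made up 1.16%, 1.78%, 1.90% and 1.67% of counts in male Pink1-/- libraries 17, 18, 19 and 25, against 2.02%, 1.79%, 1.84% and 1.71% in male WT libraries 20, 22, 23 and 24. In females they made up 0.554%, 0.768%, 0.928% and 0.918% in Pink1-/- libraries 548, 602, 736 and 983, against 1.05%, 1.18%, 1.16% and 1.09% in WT libraries 64, 111, 504 and 980. The male groups overlapped and the female ones did not. The nuclear members together made up 0.120% to 0.138% of counts in male Pink1-/- and 0.126% to 0.138% in male WT libraries. They made up 0.165% to 0.185% in female Pink1-/- and 0.170% to 0.189% in female WT libraries, so this share overlapped in both sexes.

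The ratio of Mt-nd to nuclear counts was 4.56 ± 1.14 in female Pink1-/- and 6.18 ± 0.376 in female WT libraries (SD, n = 4 each). Library by library it was 2.99, 4.49, 5.64 and 5.12 in Pink1-/- and 5.68, 6.51, 6.11 and 6.42 in WT females. The groups came apart by the narrow gap between Pink1-/- 736 and WT 64. On the log2 scale the difference was -0.48, and it ran from -0.59 to -0.29 when each library was left out, the last without Pink1-/- 548. Males had ratios of 8.80, 14.8, 15.6 and 12.2 in Pink1-/- and 15.8, 14.2, 13.9 and 12.4 in WT libraries, with means of 12.8 ± 3.06 and 14.1 ± 1.41. The male log2 difference of -0.16 was 0.01 without Pink1-/- 17. These sums describe the chosen members and carry no test. Within the counts of all 13 mitochondrial mRNAs, Mt-nd genes held 16.2%, 21.1%, 23.0% and 21.2% in female Pink1-/- libraries, against 22.8%, 22.8%, 23.0% and 24.1% in female WT. The range in males was 19.8% to 22.2% in Pink1-/- and 19.6% to 23.2% in WT libraries.

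**Figure D4:**
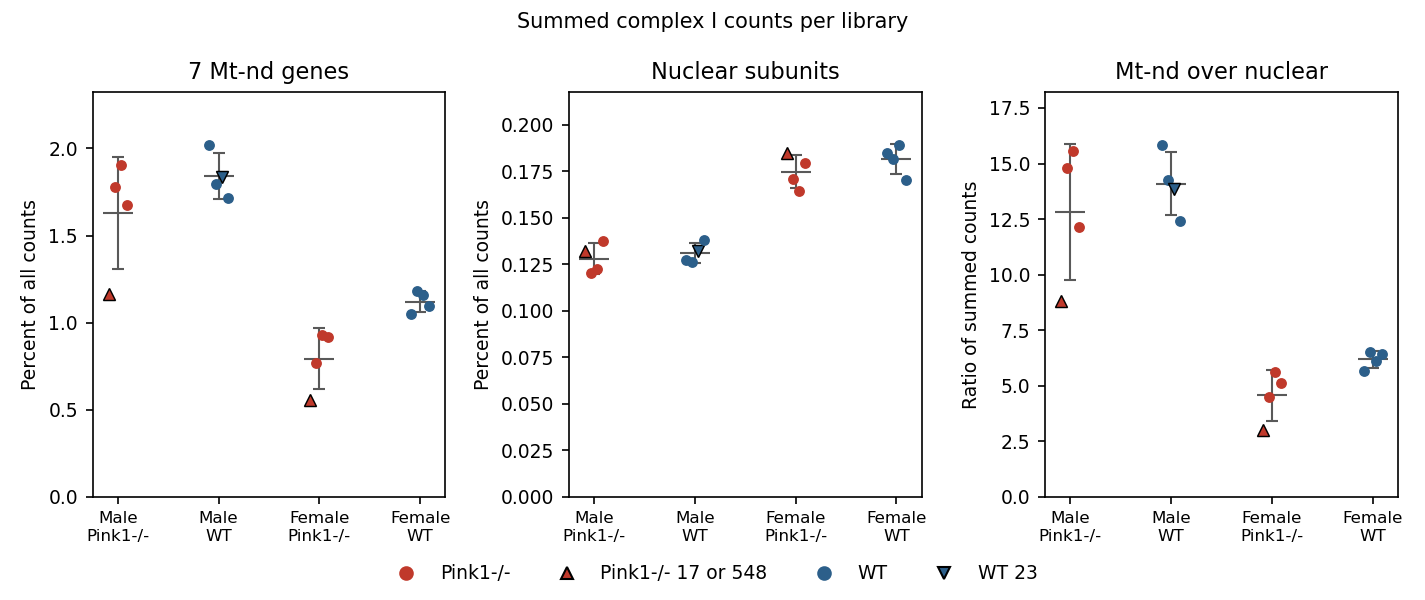
Share of all counts of the 7 Mt-nd genes (left) and of the nuclear members (middle), and their ratio (right), for each library of the 4 groups, with the mean and 1 SD. Female Pink1-/- libraries have 0.554% to 0.928% of counts on Mt-nd genes, all below the 1.05% to 1.18% of female WT, while the nuclear shares overlap in both sexes.

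An interaction term between genotype and sex, fitted on all 16 libraries, tested whether the genotype difference was unlike in male and female libraries (15042 genes, 0.0798% called). Sex and how the libraries were made cannot be told apart, so the term carries both. No member passed. Ndufb7 had the smallest member p, with a male log2 fold change higher by 1.08 (SE 0.28, unadjusted p = 0.0013, adjusted p = 0.205). Of the 34 nuclear rows tested, 8 had an unadjusted p under 0.05, as did 14% of all genes: Ndufb7, Ndufa8 (0.54), Ndufa2 (0.31), Ndufb10 (0.29), Ndufv1 (0.40), Ndufs7 (0.91) and Ndufa11 (0.72) with the male value higher, and Ndufa6 (-0.37) with the male value lower. For the Mt-nd genes the male minus female difference had a median of 0.39, with 6 of 7 above 0, and 0 had an unadjusted p under 0.05. The genotype difference of the Mt-nd genes was therefore not shown to be unlike in male and female libraries, and no Mt-nd gene passed in either sex.

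Some members hang on which identifier a symbol is given. The row with the symbol Ndufa13, the subunit also known as GRIM-19, held 0 to 4 counts in every library and was tested in neither sex. The Ndufs5 row held 3 to 8 counts in females and was tested in males only. The authors' deposited comparison tables give these symbols to other identifiers, ENSRNOG00000020602 and ENSRNOG00000026646. By those, Ndufa13 stood at 19.3 ± 5.01 CPM in Pink1-/- and 14.4 ± 1.46 CPM in WT males (0.43, SE 0.16, adjusted p = 0.130) and at 54.9 ± 7.85 and 57.4 ± 6.46 CPM in females (-0.06). Ndufs5 stood at 66.8 ± 5.57 CPM in Pink1-/- and 64.9 ± 3.86 CPM in WT males (0.04, adjusted p = 0.749), and at -0.04 in females. With these identifiers 1 member rose and 1 fell in males and 0 passed in females. In the authors' deposited table for males, which rests on a likelihood ratio test, 2 of 44 complex I rows are marked up (Ndufb7, false discovery rate 0.0015, and Ndufs7, 0.0093) and 2 down (Ndufa6, 0.0017, and Ndufb6, 0.0409). Their table for females marks 0 of 42. How many of all genes the authors' tables mark was not counted here. The likelihood ratio test run here called 957 of 13770 genes in males and 49 of 15265 in females.

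Other genes of the respiratory chain were read from lists. Of 19 complex I assembly factors 17 were found, all were tested and 0 passed in either sex, with medians of -0.03 in each. The smallest p in males belonged to Ndufaf4 at -0.29 (adjusted p = 0.107) and Ecsit at 0.34 (0.133), and in females to Ndufaf5 at -0.11 and Acad9 at -0.09 (adjusted p = 0.993 for both). Of 39 nuclear subunits of complexes II to V, 38 were found, with 39 rows tested in each sex. In males 1 of these fell and 0 rose: Uqcrfs1, the Rieske iron-sulfur protein of complex III, stood at 55.7 ± 3.82 CPM in Pink1-/- and 69.0 ± 3.43 CPM in WT (-0.31, SE 0.07, adjusted p = 0.0489). Over all male genes, 1.22% were called lower. The Uqcrfs1 call was not followed through the other settings or with libraries left out, as those of Ndufa6 and Ndufb7 were. In females 0 passed, 37 of 39 rows were below 0 and the median was -0.12, while 49.7% of all genes were below 0. The nuclear complex I rows leaned the same way, with 30 of 33 below 0 and a median of -0.10. In females Uqcrfs1 stood at -0.16 (adjusted p = 0.993). The 6 other mitochondrial mRNAs were below 0 in both sexes, with medians of -0.21 in males and -0.37 in females, and 0 passed. In females 5 of these 6 (all but Mt-atp8) were lower in Pink1-/- without overlap, as were 1.76% of all female genes. The smallest female p belonged to Mt-cyb, of complex III, at 2222 ± 339.8 CPM in Pink1-/- and 2880 ± 180 CPM in WT (-0.37, adjusted p = 0.713) and Mt-cox3, of complex IV, at 4768 ± 783 CPM in Pink1-/- and 6182 ± 399 CPM in WT (-0.37, adjusted p = 0.858).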

How the data were processed

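RNA was measured by sequencing in 16 rat brain libraries, 4 per sex and genotype. The authors deposited 1 table of estimated counts per gene for each sex, made with RSEM (no version given), and 1 comparison table per sex with log2 fold changes, mean log2 CPM, a likelihood ratio score, p-values and false discovery rates, per the file headers; edgeR 3.9 is named in the submitters' processing notes. No aligner is named, and genome build and gene models were not given in the sources used here. Reads of near-identical sequences are shared out by RSEM, and subunits with pseudogenes, and mitochondrial genes with nuclear copies, are uncertain.

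The estimated counts, already whole, were filtered with filterByExpr (minimum count 10, minimum total 15), scaled by TMM and tested with edgeR 4.0.16 (quasi-likelihood, R 4.3.3) in each sex over all genes, with a Benjamini-Hochberg adjusted p under 0.05 as the threshold. SEs are the size of the log2 fold change divided by the root of the F statistic, and levels are TMM-scaled CPM. DESeq2 1.42.0, limma 3.58.1 and sva 3.50.0 gave alternatives. The fits were also run on simulated data with the same spread for every gene and no differences in composition between libraries. That checks the code and not how the fits behave on these libraries. Replicates differed beyond counting noise in all 24 within-group pairs. Of the per-sample columns, 0 were unused. Named genes are the called members, all Mt-nd genes, the 3 nuclear members at each end in each sex, and called genes of related lists or, where none was called, the 2 with the smallest p. Others given with values, such as Ndufs8, Ndufv1, Ndufab1, Chat and P2ry12, fall outside this rule and were chosen after their values were seen. Members, lists and the rule were chosen with earlier results of these data known. Rat genes of lists were matched by symbol or by RefSeq synonym. Promoters and motifs came from RefSeq (GRCr8).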

Additional observations from a re-analysis of the deposited data

Results flagged for a closer look

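In 5 of 92 groups of 4 libraries examined, 1 library stood apart from the other 3 by a gap that was larger, as a share of the range, than Dixon's critical value for 4 libraries. Chance alone gives this in about 1 in 20 groups. Male Pink1-/- 17 stood apart for Ndufa11, with 25.7 CPM against 13.0 to 15.1 CPM in the other 3 male Pink1-/- libraries, and for the 7SL RNA Rn7sl1, with 2.10% of counts against 0.578% to 0.726%. Male WT 23 stood apart for Rn7sl1 in the other direction, with 0.141% of counts against 0.559% to 0.619% in the other male WT libraries. Male WT 20 stood apart for Mt-nd4l, with 584 CPM against 292 to 326 CPM, and for the share of Mt-nd genes among mitochondrial mRNA counts, with 23.2% against 19.6% to 20.1%.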

How the results depend on the processing

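Counts of calls moved with the processing. In males, members called higher and lower, and all genes called (1, 1 and 317), were 0, 0 and 168 with library totals as the only scaling, 0, 0 and 88 with 1 surrogate variable, 2, 1 and 523 without a filter on low counts, 2, 2 and 844 with DESeq2, 2, 2 and 957 with the likelihood ratio test, 2, 2 and 1219 at an adjusted p under 0.10, and 0, 0 and 153 without Pink1-/- 17 and WT 23, a choice made after seeing the data. All 16 libraries in 1 fit called 609 genes. Leaving out each library gave 0 to 1 members higher, 0 to 2 lower, and 98 (without WT 22) to 217 (without Pink1-/- 19) genes. In females members called stayed at 0 under every alternative run, and all genes called (9) were 58 with DESeq2, 49 with the likelihood ratio test, 24 with limma-voom, 16 with a surrogate variable, 17 in 1 fit of 16 libraries, and 7 to 16 with each library left out. For the interaction (12 genes, 0 members), 3 genes were called with library totals, 19 without a filter, 21 at a mean of 1 CPM, 92 with DESeq2, 95 with the likelihood ratio test, 27 with limma-voom, 29 at 0.10 and 3 to 13 with a library left out; DESeq2 and the likelihood ratio test each called 1 member higher, Ndufb7. Signs turned as follows, and the cause was not tested. In males limma-voom put Mt-nd4 at 0.050 and Mt-nd5 at 0.026. A surrogate variable put Mt-nd1, Mt-nd2, Mt-nd4, Mt-nd5 and Mt-nd6 at 0.064, 0.0049, 0.13, 0.12 and 0.12, and leaving out 17 and 23 put Mt-nd4, Mt-nd5 and Mt-nd6 at 0.075, 0.064 and 0.041. With each library left out, male values ran from -0.10 to 0.018 for Ndufa1 (ENSRNOG00000052226), -0.19 to 0.024 for Mt-nd6, -0.21 to 0.10 for Mt-nd4, -0.20 to 0.078 for Mt-nd5 and -0.29 to 0.10 for Mt-nd4l. Female values ran from -0.040 to 0.090 for Ndufb8, -0.11 to 0.21 for Ndufs7, -0.041 to 0.10 for Ndufb11, -0.19 to 0.014 for Ndufb7 and -0.20 to 0.0088 for Ndufa11. In the interaction limma-voom put Ndufb8 at -0.013 and Mt-nd3 at 0.013, and with a library left out Mt-nd3 ran from -0.22 to 0.11 and Ndufb11 from -0.0087 to 0.13. No paired analysis was possible because the groups share no animal number. Rows of few counts (the Ndufs5 and sparser Ndufa1 identifiers) limit precision, and without Mt-nd lengths no level is compared between genes.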
